A study of Mus musculus with 8 samples.

Results

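The 10 genes described here carry out or serve the making of fatty acids and their storage: Acly, Acaca and Fasn of de novo synthesis, Elovl6 of chain elongation, Scd1, Scd2, Fads1 and Fads2 of desaturation, Acsl3 of fatty acid activation and Plin2 of the lipid droplet coat. They were taken by name, with no threshold on their values, but with earlier results of these data known. All 10 were among the 12404 genes of the deposited count table, and all 10 passed the filter on low counts that left 8645 genes for testing. The cells were TM3, an established mouse line of Leydig cells, which make testosterone in the testis, either normal or exposed to bisphenol A (BPA), a plastics component with estrogen-like activity. Each condition had 2 RNA-seq libraries, which also served as input, and 2 MeRIP libraries, made from RNA fragments pulled down with an antibody to N6-methyladenosine (m6A). The labels give no dose, no exposure time and no vehicle for the normal cells, and they do not say whether the replicates were separate cultures, so the p-values below reflect library-to-library spread that may be technical.

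Fatty acid synthesis starts in the cytosol, where ATP citrate lyase splits citrate into acetyl-CoA, acetyl-CoA carboxylase turns that into malonyl-CoA, and fatty acid synthase joins these units into palmitate. Elongases lengthen the chain and desaturases add double bonds, and the products enter phospholipids, triglycerides and cholesterol esters. The transcription factors SREBP-1 and SREBP-2, held in the endoplasmic reticulum by SCAP and INSIG proteins, drive most of these genes, and in Leydig cells lipid droplets hold the cholesterol esters used for steroid synthesis.

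The 4 RNA-seq libraries held between 6305121 and 10455643 reads. Per gene, the median count stood at 15 (BPA 1), 2 (BPA 2), 233 (normal 1) and 150 (normal 2). Genes lacking any read numbered 4086, 4676, 2877 and 2207, in that same order. Sparse BPA counts were thus common across genes, and those of single genes below are to be read against this. Why BPA libraries were sparser was not tested. Ranked over all tested genes, the BPA pair had a Spearman correlation of 0.549 and the normal pair one of 0.741 (genes are not independent replicates), so replicates were far from alike. Between the groups the correlations ran from 0.572 to 0.638, so each BPA library was closer in rank to both normal libraries than to the other BPA library. None of the 9 Leydig markers looked for was among the rows of the table, although rows with a total of only 1 read were. The deposited counts thus hold no read for these markers, which do not bear out the cell type label. Why their rows were absent was not tested. Of the markers of other cells, 4 were tested. Of 5 macrophage markers only Cd68 was tested, counted at 174 and 436 reads with BPA and at 0 and 59 without it. The smooth muscle gene Acta2, the only 1 tested of 6 markers of smooth muscle and endothelium, stood at 498 and 1270 reads with BPA and at 80 and 352 without it. The summed markers of smooth muscle and endothelium thus stood at 57.9 and 237 counts-per-million (CPM) in BPA and at 6.93 and 45.1 in normal cells, through Acta2 alone. The Sertoli cell list rested on Wt1 and Clu and summed to 266 and 135 CPM in BPA and 155 and 296 in normal cells. Most of that sum was Wt1, at 227 and 96.4 CPM in BPA and 135 and 296 in normal cells. Clu had 38.9 and 38.3 CPM in BPA and 19.2 and 0.128 in normal cells. Their log2 fold changes had opposite signs, -0.33 for Wt1 and 1.78 for Clu. No germ cell or adipocyte marker was tested. In bulk RNA a change in the cells present and a change in RNA per cell cannot be told apart, and the part of these markers in the results was not tested.

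The comparison of BPA-exposed with normal cells asked whether the RNA of the 10 genes differed. Elovl6 had the largest difference of the 10, with a mean of 102 CPM in BPA against 16.6 in normal cells, and Plin2 the largest in the other direction, with 39.6 against 112. The other 8 had log2 fold changes between -0.38 and 0.63. With p adjusted by Benjamini-Hochberg over 8645 genes, the quasi-likelihood test of edgeR called none of the 10, whose adjusted p lay between 0.461 and 0.993, and it called 0% of all tested genes. At an unadjusted p under 0.05 in edgeR there were 0 of the 10 and 9.64% of all tested genes. Leaving out BPA replicate 1 moved this count to 2 of the 10, Elovl6 with an adjusted p of 0.233 and Acsl3 with one of 0.329 in edgeR, in a fit where 990 of 11088 tested genes were higher and 475 lower at that threshold. DESeq2 also called 0 of the 10, against 3.05% of all tested genes. Of the 10 log2 fold changes 7 were positive and 3 negative with a median of 0.19, and 49.5% were positive over all tested genes, where the median was -0.02. That median also rested on both BPA libraries: the genes tested in each edgeR fit had one of -2.87 without BPA replicate 1 and -1.13 without BPA replicate 2, and of -0.04 without normal replicate 1 and -0.02 without normal replicate 2. Leaving out a library changed which genes passed the filter, so these medians cover other sets of genes than the full fit. The scale itself moved little from that fit. Its log2 shift was 0.03 with BPA replicate 1 dropped and -0.03 with replicate 2 dropped. Dropping normal replicate 1 shifted it by 0.13, and dropping normal replicate 2 by 0.04. The fold changes given below with a library left out are therefore not to be corrected by these medians. In 2 of the 10, or 20%, the CPM of BPA and normal libraries did not overlap, against 40.0% of all tested genes.

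**Figure D1:**
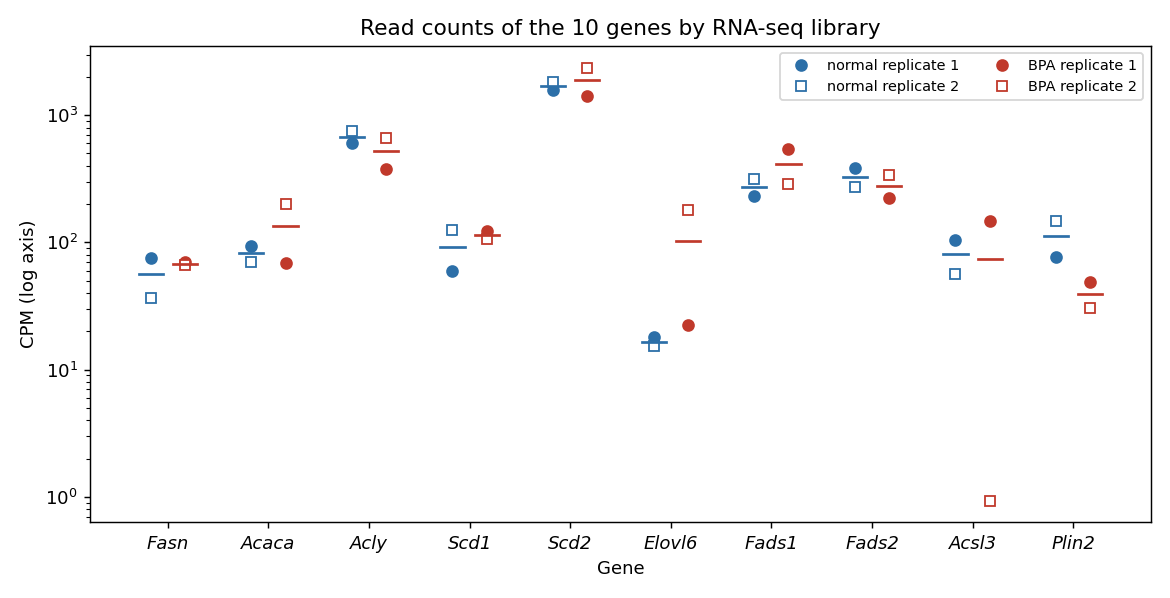
CPM of the 10 genes (log axis) in each RNA-seq library, with normal in blue, BPA in red, circles for replicate 1, open squares for replicate 2 and a bar at the mean of 2 libraries. The groups separate in Elovl6 and Plin2 alone, and the lowest point is Acsl3 in BPA replicate 2 at 0.934 CPM.

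The 3 enzymes of palmitate synthesis were all present in every library. Acly, which encodes ATP citrate lyase, had 380.0 and 667 CPM with BPA and 607 and 745 without it. BPA replicate 1 was the low library, and BPA replicate 2 lay between the normal ones. The means were 523 ± 203 in BPA and 676 ± 97.7 CPM in normal cells (SD, n = 2 each), a log2 fold change of -0.38 ± 0.48 (SE). Acaca, which encodes the cytosolic acetyl-CoA carboxylase and so the committed step, had 69.1 and 200.2 CPM in BPA and 93.6 and 70.1 in normal cells. Here BPA replicate 2 alone was high, and the log2 fold change of 0.61 ± 0.92 (SE) was -0.23 without that library. Fasn, which encodes fatty acid synthase, had 70.0 and 66.3 CPM in BPA and 75.5 and 36.5 in normal cells. Both BPA values fell between the normal ones. Its log2 fold change of 0.23 ± 1.10 (SE) was 1.04 without normal replicate 1 and -0.11 without normal replicate 2. The adjusted p in edgeR was 0.803 for Acly, 0.845 for Acaca and 0.955 for Fasn. Acaca overlaps Tada2a in the RefSeq annotation of GRCm38, and no source used here states whether counting used strand, so reads of the overlap are uncertain.

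Elovl6, the elongase that takes palmitate to stearate, differed mostly in a single library. It was counted at 193 and 970 reads with BPA and at 208 and 119 without it, or 22.4 and 181 CPM against 18.0 and 15.3. BPA replicate 2 was 8.08 times BPA replicate 1, whereas BPA replicate 1 lay just above the normal libraries. The groups did not overlap, as in 12.8% of all tested genes in this direction. The log2 fold change of 2.43 ± 1.42 (SE) had an adjusted p of 0.461 in edgeR and 0.421 in DESeq2. Without BPA replicate 2 it was 0.45, and without BPA replicate 1 it was 3.47. Elovl6 overlaps the long noncoding RNA gene Gm35986 in the same annotation, so its reads there are uncertain as well.

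The stearoyl-CoA desaturases place the first double bond in stearate and palmitate. Scd2, the isoform widely expressed outside the liver, was counted at 12208 and 12671 reads with BPA and at 18285 and 14105 without it, and it supplied between 46.6% and 55.8% of all reads of the 10 genes in each library. Scaled to CPM these were 1419 and 2368 in BPA and 1585 and 1809 in normal cells, so that the BPA libraries lay on both sides of the normal ones. Its log2 fold change was 0.15 ± 0.37 (SE), the smallest error of the 10. Scd1, the isoform dominant in liver and fat, had 124 and 107 CPM in BPA and 59.5 and 125 in normal cells, and normal replicate 1 was the low library. The log2 fold change of Scd1 was 0.39 ± 0.90 (SE). The sign for Scd2 was not stable, at -0.22 without BPA replicate 2 and -0.13 in a fit restricted to genes averaging 1000 reads or more. Scd1 and Scd2 are close paralogs, and no source used here states how reads matching both were counted, so their split is uncertain.

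Fads1 and Fads2, neighbouring genes, encode the delta-5 and delta-6 desaturases that make long polyunsaturated fatty acids from dietary precursors. Fads1 had 541 and 287 CPM in BPA and 233 and 315 in normal cells. BPA replicate 1 was high, while BPA replicate 2 lay within the normal range. The log2 fold change was 0.63 ± 0.57 (SE), and 0.13 without BPA replicate 1. Fads2 had 222 and 336 CPM in BPA and 386 and 273 in normal cells, with overlapping groups and a log2 fold change of -0.27 ± 0.58 (SE). Fads2 turned to 0.07 without BPA replicate 1 and to 0.13 without normal replicate 1. The adjusted p in edgeR was 0.703 for Fads1 and 0.891 for Fads2.

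Acsl3, which activates fatty acids at the endoplasmic reticulum and on nascent lipid droplets, had the widest replicate gap of the 10. It was counted at 1277 and 5 reads with BPA and at 1212 and 437 without it, or 148 and 0.934 CPM against 105 and 56.0. BPA replicate 1 was thus the highest library and BPA replicate 2 the lowest, 159-fold apart. The log2 fold change of 0.03 ± 1.12 (SE) averages these. Leaving out BPA replicate 1 gave -6.40, and leaving out BPA replicate 2 gave 0.88. Acsl3 overlaps Utp14b in the same annotation, so reads of the overlap are uncertain here too.

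Plin2, the perilipin that coats lipid droplets in cells other than adipocytes, was the only one of the 10 with both BPA libraries below both normal libraries. It was counted at 418 and 164 reads with BPA and at 883 and 1157 without it, or 48.6 and 30.6 CPM against 76.5 and 148. Over all tested genes 27.2% had such a separation in this direction. The log2 fold change of -1.41 ± 1.09 (SE) did not pass the test, with an adjusted p of 0.635 in edgeR and 0.911 in DESeq2. It was negative in all 9 alternatives run for Plin2, from -1.78 without BPA replicate 1 to -0.86 without normal replicate 2. Plin2 overlaps the transcribed pseudogene Gm12551 in the same annotation, so its reads there are uncertain as well.

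**Figure D2:**
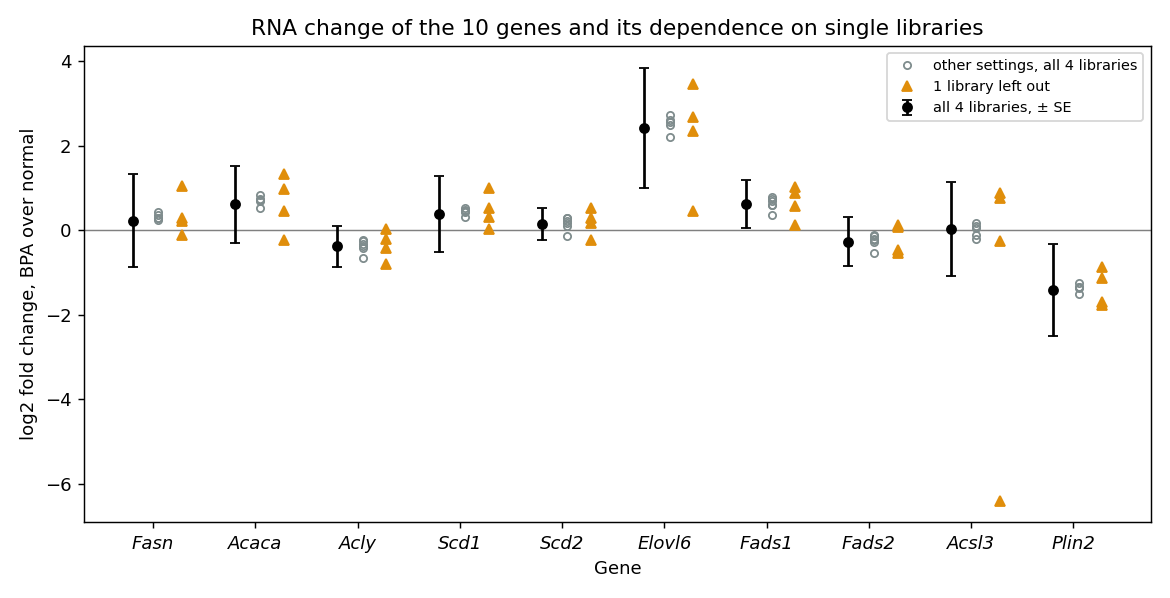
Log2 fold change of BPA over normal for each of the 10 genes, as the edgeR estimate with its SE (black), under the other settings with all 4 libraries (grey circles) and with 1 library left out (orange triangles). Elovl6 ranges from 0.45 to 3.47 and Acsl3 from -6.40 to 0.88 with a library left out, while Plin2 stays below 0 throughout.

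The 10 genes were better covered than most. In 9 of the 10 every library held at least 100 reads, against 37.0% of all tested genes, and Acsl3 was the exception. None stayed at 10 reads or fewer in both BPA libraries, as 15.6% of all tested genes did. The median gap between the BPA replicates was 0.78 on the log2 CPM scale for the 10 genes and 1.75 for all tested genes, and between the normal replicates it was 0.47 and 0.85. Genes of like level were not compared, here or for the share of groups that did not overlap. Added together, the 10 genes took 0.297% and 0.360% of all reads with BPA and 0.357% and 0.373% without it. The summed CPM was 3044 and 4245 in BPA and 3239 and 3594 in normal cells, so the total did not separate the groups.

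The members did not share a common profile over the 4 libraries. Acly, Acaca, Scd2, Elovl6 and Fads2 had more CPM in BPA replicate 2 than in BPA replicate 1, whereas Fasn, Scd1, Fads1, Acsl3 and Plin2 had less. The search for similar genes covered the 5008 tested genes whose average log2 CPM was 5 or more. Those whose centred log2 CPM lay closest to each member except Acsl3 were found by root mean square difference. Acsl3 was left out for its few reads in BPA replicate 2. Closest to Acly were Gm12966 at 0.036 and Gmps at 0.037, and closest to Scd2 were Mapre1 at 0.038 and H1f0 at 0.046. Scd1 was most like Gm10800 at 0.037 and Zcchc24 at 0.041, Acaca most like Rdx at 0.052 and Rras2 at 0.069, and Fads1 most like Iqgap1 at 0.057 and Capza2 at 0.075. Fads2 had Efcab14 at 0.058 and Nisch at 0.072, Fasn had Phkb at 0.066 and Ckap4 at 0.091, Elovl6 had Rabgef1 at 0.079 and Ddx56 at 0.164, and Plin2 had Git2 at 0.098 and Nbr1 at 0.104. No member was among the 2 genes named for another. With only 2 of 5008 candidates kept per member, this cannot decide whether members had similar profiles. With 4 libraries the likeness to the named genes is a description of these libraries.

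The regulators of lipogenesis were uneven. Srebf1, which encodes SREBP-1, was counted at 127 and 266 reads with BPA and at 0 and 82 without it, and Srebf2 stood at 1486 and 241 reads with BPA and at 1872 and 1268 without it. Insig1, which encodes an endoplasmic reticulum anchor of the SREBP pathway and is itself an SREBP target, was counted at 8 and 1 reads with BPA and at 232 and 469 without it. The log2 fold changes were 2.75 ± 1.94 for Srebf1, -0.48 ± 0.83 for Srebf2 and -5.82 ± 2.96 for Insig1 (SE), with adjusted p of 0.582, 0.867 and 0.379 in edgeR. Scap was counted at 1 and 0 reads with BPA and at 629 and 6 without it and did not pass the filter on low counts. Usf1, an activator of the Fasn promoter, was counted at 0 and 2 reads with BPA and at 457 and 141 without it, and Prkaa1, a catalytic subunit of the kinase AMPK that inhibits acetyl-CoA carboxylase, stood at 458 and 3 reads with BPA and at 1616 and 856 without it. Sp1, a general activator, stood at 840 and 3704 reads with BPA and at 1776 and 1636 without it. In all, 17 of the 24 listed regulators were tested, 5 with positive and 12 with negative log2 fold changes and a median of -0.48. edgeR and DESeq2 called 0 of them, and 0 had an unadjusted p under 0.05 in edgeR.

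Of the genes that supply carbon and NADPH 12 were tested, 4 with a log2 fold change above 0 and 8 below, with a median of -0.43. G6pdx, the first enzyme of the pentose phosphate pathway, had 0 reads in both BPA libraries and 167 and 228 in normal cells, at least 95-fold lower when the BPA group is set to a floor of 3 counts in total. Mcat, of mitochondrial fatty acid synthesis, stood at 0 and 0 reads with BPA and at 225 and 67 without it, at least 70.2-fold lower. Mecr, of the same mitochondrial pathway, stood at 2 and 0 reads with BPA and at 310 and 58 without it. Such bounds cover counting error only, and 9.12% of all tested genes had 0 reads in both BPA libraries. Pgd, the next NADPH-producing enzyme, stood at 1105 and 862 reads with BPA and at 2303 and 1366 without it with a log2 fold change of -0.40 ± 0.73 (SE), and citrate synthase, encoded by Cs, stood at 376 and 1378 reads with BPA and at 1474 and 290 without it. Of this list Mcat alone had an unadjusted p under 0.05 in edgeR, and DESeq2 called 0.

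Of the partners of elongation and desaturation 11 were tested, 5 with a log2 fold change above 0 and 6 below, with a median of -0.25. Elovl5, which elongates polyunsaturated chains, was counted at 6779 and 3792 reads with BPA and at 2873 and 4927 without it, with a log2 fold change of 0.79 ± 0.52 (SE). Cyb5b, a cytochrome b5 gene, stood at 1256 and 4209 reads with BPA and at 3174 and 1633 without it, and the dehydratase gene Hacd4 stood at 19 and 0 reads with BPA and at 525 and 176 without it. Among acyl-CoA synthetases, thioesterases and fatty acid binding proteins 6 of 9 tested were positive, with a median of 0.60. Acsl4, which prefers arachidonate, stood at 1677 and 1545 reads with BPA and at 917 and 1675 without it, Fabp5 stood at 3415 and 5 reads with BPA and at 968 and 559 without it, and Dbi, the acyl-CoA binding protein gene, stood at 90 and 1 reads with BPA and at 1000 and 584 without it. Acbd3 stood at 413 and 1017 reads with BPA and at 284 and 223 without it, and the thioesterase gene Acot9 stood at 97 and 528 reads with BPA and at 20 and 144 without it. The gap between BPA replicates in Fabp5 was of the kind seen in Acsl3. At an unadjusted p under 0.05 in edgeR there was 0 of the first list and 1, Dbi, of the second, and DESeq2 called 0 of either.

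In glycerolipid synthesis 6 of 13 tested genes were positive and 7 negative. Agpat3, a lysophosphatidate acyltransferase gene, was counted at 3 and 2 reads with BPA and at 914 and 414 without it, with a log2 fold change of -7.50 ± 3.06 (SE) and an adjusted p of 0.372 in edgeR and 0.0137 in DESeq2. Dgat1, of the last step of triglyceride synthesis, stood at 289 and 0 reads with BPA and at 0 and 52 without it, and Mboat7 stood at 325 and 1 reads with BPA and at 113 and 0 without it. Gpat4 stood at 1256 and 273 reads with BPA and at 1374 and 971 without it, and Cept1 stood at 1081 and 143 reads with BPA and at 1173 and 789 without it. The lipid droplet and lipolysis list, which Plin2 would belong to, had 7 of 9 tested genes negative and a median of -1.18. Over all 8645 tested genes 4370 were negative. Only 3 of the 9 had at least 100 reads in all 4 libraries. Plin3, another perilipin gene, stood at 2 and 0 reads with BPA and at 230 and 222 without it, Aup1 stood at 88 and 1 reads with BPA and at 1142 and 211 without it, and Abhd5, the activator of triglyceride lipase, stood at 22 and 1 reads with BPA and at 201 and 63 without it. Rab18 stood at 423 and 633 reads with BPA and at 1290 and 1989 without it, and Ubxn4 stood at 937 and 1494 reads with BPA and at 2216 and 962 without it. None of the 9 had an unadjusted p under 0.05 in edgeR, and DESeq2 called 0.

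Of the genes of fatty acid oxidation, which breaks the chains down, 17 were tested, 6 with a log2 fold change above 0 and 11 below. Eci1, an enoyl-CoA isomerase gene, had 607 and 217 reads in BPA and 0 in both normal libraries, at least 381-fold higher by the same floor, with an adjusted p of 0.372 in edgeR and 0.00207 in DESeq2. That bound covers counting error only, and Eci1 passed the filter on low counts through its BPA libraries alone. The groups did not overlap in this direction in 12.8% of all tested genes. How many had 0 reads in both normal libraries was not counted. Slc25a20, the carnitine carrier gene, stood at 381 and 620 reads with BPA and at 0 and 97 without it, while Cpt2, of the same carnitine shuttle, stood at 0 and 0 reads with BPA and at 173 and 51 without it, at least 53.9-fold lower. The abundant Echs1 stood at 1230 and 548 reads with BPA and at 943 and 1476 without it and Hadh at 1393 and 255 with BPA against 1933 and 1070. Over all 88 tested genes of these 7 lists 34 were positive and 54 negative, with a median of -0.31. edgeR called 0 of the 88. An unadjusted p under 0.05 was reached by 2 genes with higher values, against 2.41% of all tested genes, and by 4 with lower values, against 7.23%. DESeq2 called Eci1 as higher, against 0.521% of all tested genes, and Agpat3 as lower, against 2.53%.

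**Figure D3:**
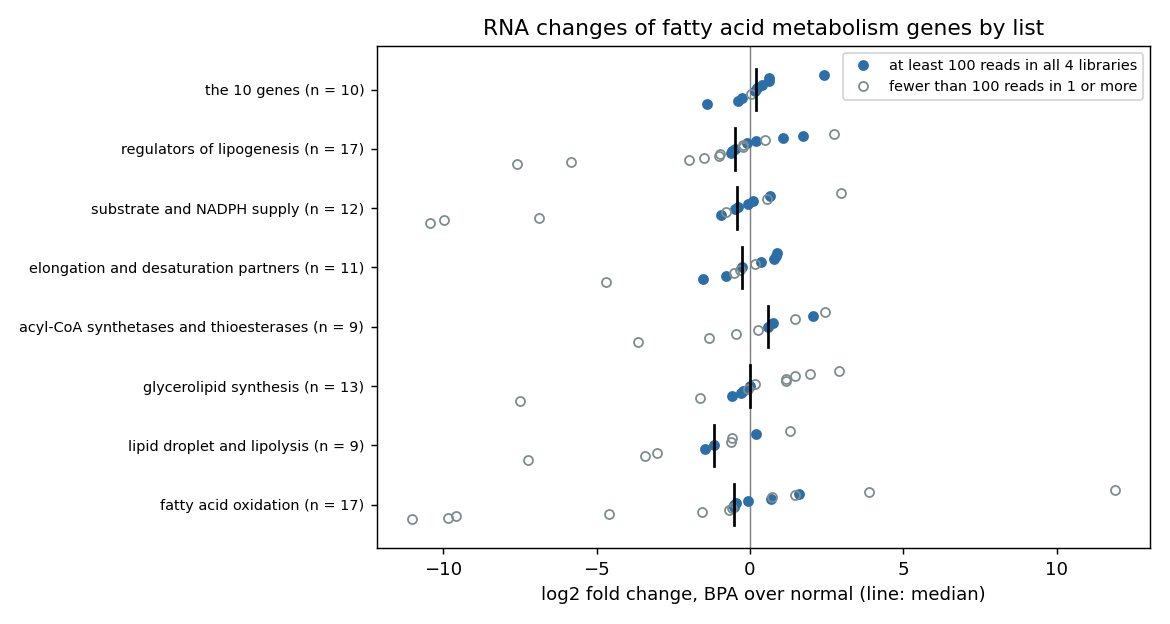
Log2 fold change of BPA over normal for each tested gene of the 10 and of the 7 other lists, with a black line at each median, filled circles for genes with at least 100 reads in all 4 libraries and open circles for the others. The values beyond 3 on either side of 0 are open circles, and 9 of the 10 genes in the top row are filled.

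For m6A the authors listed 3331 differential peaks, each with 1 IP and 1 input value per condition in reads-per-million (RPM), pooled over replicates. The 3331 peaks together took between 82.6% and 89.4% of the RPM total in each column, so an RPM value here is mostly a share of the reads in the listed peaks and not of a whole library, and it depends on the other peaks. Read numbers for peaks were recovered from the steps of the RPM values. The totals recovered for the input, 1703692 reads in normal cells and 818212 in BPA, were far below the 17973125 and 15118991 reads of the RNA-seq counts. There is no replicate error for any peak, and each difference below compares pooled libraries. The table held 9 peaks in 6 of the 10 genes: 2 each in Acly, Scd2 and Acsl3 and 1 each in Fads1, Fads2 and Plin2. Over all tested genes 23.6% had a peak in it. Fasn, Acaca, Scd1 and Elovl6 had none, which says nothing of their m6A, since the table lists differential peaks. The ratio of IP to input was higher in BPA at 5 of the 9 peaks and lower at 4, by the fold change that the authors' deposited table gives. Over all 3331 peaks 68.8% were higher and 31.2% lower. In RPM the IP exceeded the input at 5 of the 9 peaks in normal cells and at 4 in BPA, against 47.7% and 62.5% of all peaks. A higher ratio in BPA is thus not always an IP above its input, and a ratio alone does not show m6A at a peak. Coordinates were read as GRCm39, which the submitters' notes name beside the human build GRCh38. Most peaks lay outside the span of their gene in GRCm38, but the reading was not checked against a GRCm39 annotation. The sequence, exons and introns under the peaks are not analysed here.

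The Scd2 peak with the most reads had less IP signal in BPA. At chr19:44291765-44291914 on the plus strand the IP was 1154 RPM in normal cells and 303 in BPA, while the input was 1141 and 1911 RPM. These rest on 6234 and 1183 reads in the IP and 1944 and 1564 in the input. The log2 ratio of IP to input was 0.02 in normal cells and -2.65 in BPA, with 1 RPM added to each value. Of the 9 peaks it had the lowest log2 difference of IP, at -1.93. The authors' deposited table gives it a log2 fold change of -1.90 and a false discovery rate of 1.16e-174. The other Scd2 peak, at chr19:44293165-44293214, had 279 and 239 RPM in the IP and 414 and 304 in the input. Its log2 ratio was -0.57 in normal cells and -0.35 in BPA, so the differences at the peaks of this gene had opposite signs and unequal sizes.

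The authors' fold changes stood above those of the RPM values by a constant. In the 1016 peaks where each column held 100 reads or more, and in the 7 of the 9 peaks with no value at 0, the fold change of the authors' deposited table exceeded the log2 ratio of ratios by 0.78. No source used here states the scaling behind that constant. For the smaller differences it matters: the second Scd2 peak had 1.00 in the authors' deposited table and 0.22 from its RPM, and the Fads2 peak had -0.51 in the authors' deposited table and -1.28 from its RPM. In none of these 7 peaks did it turn the sign.

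In the desaturase genes Fads1 and Fads2 the ratio was lower in BPA. The Fads1 peak at chr19:10173805-10173854 had nearly the same IP in both conditions, 195 RPM in normal cells and 205 in BPA, and an input of 23.5 and 556 RPM, or 40 and 455 reads. The log2 ratio of IP to input thus went from 3.0 to -1.43 with almost all of the difference in the input. The Fads2 peak at chr19:10041179-10041303, on the minus strand, had 308 and 223 RPM in the IP and 88.0 and 155 in the input, with a log2 ratio of 1.80 in normal cells and 0.52 in BPA. Of the 5 peaks that held at least 20 reads in every column these had the highest ratios of IP to input in normal cells. Over its whole length Fads1 was counted at 4654 and 1537 reads with BPA and at 2686 and 2456 without it, a smaller difference than the input at its peak.

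The peaks of Acly had higher ratios in BPA, although at the first the IP stayed below the input in RPM in both conditions. At chr11:100367654-100367678 the IP was 59.2 RPM in normal cells and 99.5 in BPA, over inputs of 113 and 108 RPM, so that here the IP carried the difference and the log2 ratio went from -0.92 to -0.11. At chr11:100410602-100410626 the IP was 38.0 and 85.2 RPM, and the input was 45.2 RPM in normal cells and 0 in BPA. The fold change of 8.5 (log2) that the authors' deposited table gives the latter rests on that 0, while the IP difference was 1.15 on the log2 scale. Both peaks span 25 bases.

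The peaks of Acsl3 and Plin2 also turned on the input. The Acsl3 peak at chr1:78659418-78659567 had 82.4 and 203 RPM in the IP and 76.9 and 8.56 in the input, the last from 7 reads. The other Acsl3 peak, at chr1:78677532-78678994 in 2 blocks of 16 and 9 bases, had 49.0 and 173 RPM in the IP and 0 and 182 in the input. The input of this gene was thus lower in BPA at the first peak, 7 reads against 131, and higher at the second, 149 against 0, while the IP was higher in BPA at both. The authors' deposited table gives them 5.25 and -7.07. The Plin2 peak at chr4:86580389-86582703, in 2 blocks of 62 and 38 bases, had 286 and 180 RPM in the IP and 569 and 3.67 in the input, the last from 3 reads. Its fold change was 7.39 in the authors' deposited table, although the IP itself was lower in BPA by 0.66 on the log2 scale, in the same direction as the gene's read counts.

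**Figure D4:**
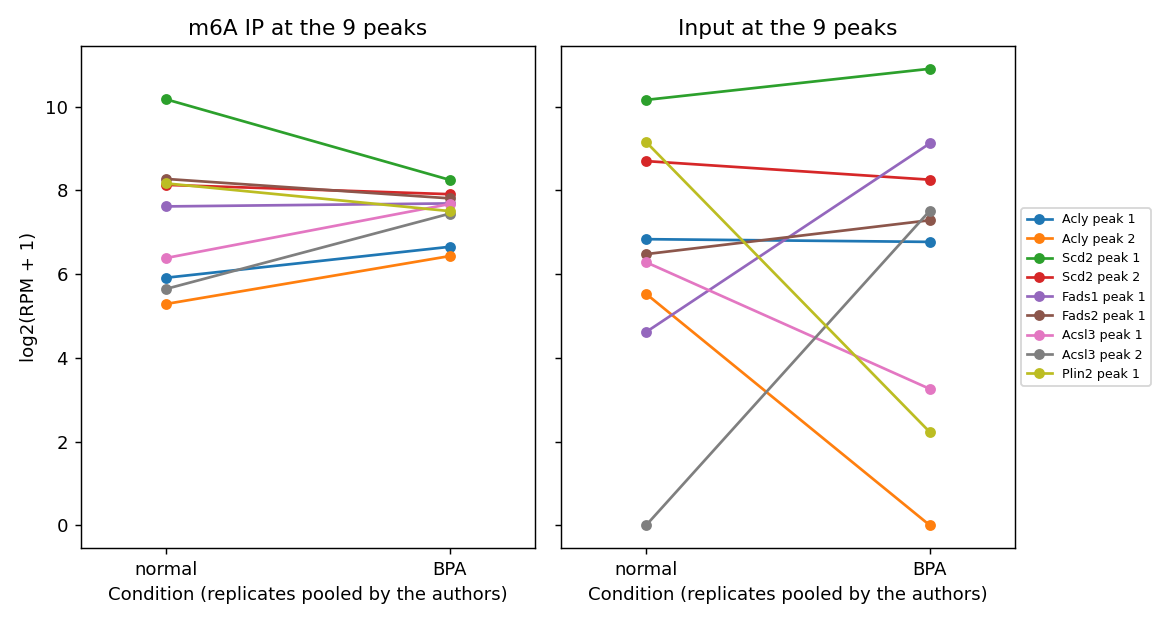
Pooled IP (left) and input (right) of the 9 peaks as log2(RPM + 1) in normal and BPA cells, with 1 line per peak. The IP lines lie close together in BPA, whereas the input lines cross, with Acsl3 peak 2 at 0 in normal cells and Acly peak 2 at 0 in BPA.

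In 7 of the 9 peaks the input differed more between conditions than the IP did, against 62.5% of all peaks. The exceptions were Scd2 peak 1 and Acly peak 1. In 3 of the 9, or 33.3%, the BPA input held 20 or fewer reads, against 53.9% of all peaks, and all 3 had a higher ratio in BPA. The input is the divisor of the ratio, so few BPA input reads push the ratio up by arithmetic. The 5 peaks with at least 20 reads in every column were both Scd2 peaks, the first Acly peak, Fads1 and Fads2, of which 2 were higher and 3 lower. Of the other pathway lists, 25 genes had 30 peaks, 24 of them (80.0%) higher and 6 lower in BPA, beside 68.8% higher over all peaks. These genes were 28.4% of the 88 tested, beside 23.6% of all tested genes. The BPA input held 20 or fewer reads at 15 of the 30 peaks, 14 of them among the higher ones, where the same arithmetic applies. Slc25a1, which exports the citrate that ATP citrate lyase uses, and Elovl5 were among those genes.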

How the data were processed

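The read counts per Ensembl gene were deposited by the authors. The submitters' processing notes name HISAT2 2.2.1 and featureCounts 2.0.1, besides fastp 0.20.1 and DESeq2 1.38.3. The 4 count columns do not name the assay. They were read as RNA-seq, since that is what featureCounts and the design's wording on input point to. Symbols were found for 12271 of 12404 genes. The peak RPM values, log2 fold changes, p-values and false discovery rates were deposited by the authors, with no caller or test named in the sources used here. Each RPM column moved in equal steps, taken as 1 read (100% of peaks, with a largest deviation of 0.027 read), which gave totals behind the scale of 5402182 and 1703692 reads for normal IP and input and 3908372 and 818212 for BPA. The build was read as GRCm39, which the notes name beside the human build GRCh38. Only 11.3% of 3176 peaks lay inside their gene's GRCm38 span, and no GRCm39 annotation was used to check the reading.

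The test was run in edgeR 4.0.16 under R 4.3.3 (TMM, filterByExpr with minimum count 10 and minimum total 15, robust quasi-likelihood F test with bias-adjusted deviances, adjusted p of 0.05), and with DESeq2 1.42.0 as an alternative. Standard errors came from the F statistic, and CPM used TMM-scaled totals. The script was tested on simulated counts. Alternatives were other size factors, no filter on low counts, abundant genes alone, replicate number as a block, each library left out, the legacy quasi-likelihood method (added after seeing the data), and, for peaks, a stricter threshold, a read minimum and a pseudocount of 0.1 RPM. The members and lists were chosen with earlier results of these data known. Named genes were the members, Srebf1, Srebf2, Scap and Insig1, of each other list the 3 with the smallest edgeR p and the 2 with the highest level, and the 2 genes most like each member with at least 100 reads in every library. Slc25a1 was named after its peaks were seen. Floors of 3 counts reflect counting error alone, as PCR copies were not marked by molecular identifiers.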

Additional observations from a re-analysis of the deposited data

How the results depend on the processing

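edgeR called 0 genes with all 4 libraries under each setting run and 0 to 1 with a library left out (mt-Nd2, without normal replicate 1), while DESeq2 called 264, none of them among the 10. Of the 10, 0 had an unadjusted p under 0.05 in each setting run except without BPA replicate 1, with 2. With a library left out the lone library of a group was assumed to vary like the other group. DESeq2's size factors moved the log2 fold changes of all genes by a median of 0.14 and the fit of abundant genes by -0.27. Among pathway genes with an unadjusted p under 0.05, 2 higher and 4 lower became 1 and 7 in DESeq2 and 0 and 0 among abundant genes, where fewer genes were tested. Without the filter on low counts 2 were lower, and the legacy method had 1 higher. With a library left out they ranged from 0 to 11 higher and from 0 to 7 lower. The cause of these moves was not tested. With replicate number as a block there were 1 higher and 0 lower, and Acsl3 turned to -0.20. The labels do not say whether same-numbered libraries were paired. The deviations of same-numbered libraries had a correlation across genes of -0.00096, which cannot decide it with so few libraries. With the block edgeR again called 0 genes. An unadjusted p under 0.05 went to 164 genes with higher and 52 with lower values in place of 208 and 625. The legacy method gave 117 and 1095, no filter 397 and 193, and DESeq2's size factors 328 and 429. Of the 10, the log2 fold changes of Scd1, Elovl6, Fads1 and Plin2 kept their sign in every alternative run. Scd2 was -0.13 among abundant genes, and Acsl3 was -0.11 with the legacy method. With a library left out, Acly ranged from -0.79 to 0.04, Fads2 from -0.54 to 0.13, Acsl3 from -6.40 to 0.88, Acaca from -0.23 to 1.32, Scd2 from -0.22 to 0.53 and Fasn from -0.11 to 1.04. With at least 20 reads in every column 2 peaks were higher in place of 5, because 3 rest on 7 or fewer BPA input reads. A false discovery rate under 0.01 left out none of the 9.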
